A study of Mus musculus with 6 samples.

Results

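The 32 genes described here encode the T cell receptor, its CD3 partners, its coreceptors and kinases, and the surface proteins and transcription factors by which T cells are recognised. They were taken by symbol from a table of 23207 gene symbols measured in splenic endothelial cells, and all 32 had a row there. All 32 also passed the filter on low counts that left 19745 genes for testing.

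The study held 6 Apoe-knockout mice, which lack apolipoprotein E, with 1 bulk RNA library per mouse. All were fed a high cholesterol diet and dosed for 8 weeks with an antisense oligonucleotide (ASO), a short strand designed to bind and deplete its target transcript. Mice 1601, 1602 and 1608 had the control ASO, and mice 1603, 1604 and 1607, labelled Mlkl KD, had the ASO against Mlkl, the pseudokinase that executes necroptosis. Neither age and sex nor the isolation of the endothelial cells is given in the sources used here. The values below keep that order of mice, control mice first. They are CPM, the counts of a gene scaled to a common library total, and means are given with their SD over 3 mice.

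T cells recognise peptides through the alpha and beta chains of their receptor, which have no signalling tails of their own. The CD3 and zeta chains carry the tails, the kinase LCK held by CD4 or CD8 phosphorylates them, ZAP70 docks there, and ZAP70 phosphorylates the adaptor LAT. T cells fill the white pulp of the spleen, and some of these genes are also made by other blood cells. This is said beside some of them only, and a gene without such a remark is not thereby particular to T cells.

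Libraries held 59988846 to 87776706 estimated counts, of which the 32 members took 0.0503% to 0.139%. Endothelial markers were detected in every library: Pecam1, an adhesion protein, measured 279, 331 and 383 CPM with control ASO, against 328, 343 and 414 CPM with MLKL ASO, and Cdh5, the endothelial cadherin, 107, 156 and 236 CPM with control ASO, against 162, 149 and 174 CPM with MLKL ASO. The summed level of 12 endothelial markers spanned 2035 to 3682 CPM with control ASO, against 2590.0 to 2757 CPM with MLKL ASO, so the MLKL ASO mice lay within the control range. Of these markers 7 were below 0 and 5 above in log2 fold change, and 2 were higher without overlap, against 9.02% of all genes tested. Mlkl, the targeted gene, measured 30.7, 31.2 and 38.0 CPM with control ASO, against 7.53, 5.81 and 3.74 CPM with MLKL ASO, lower in all 3 mice of its ASO. Mouse 1608 stood apart, with 74.5 summed CPM over 7 megakaryocyte markers against 1067 or more in every other library.

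Promoter windows of 5 members are shown first, because 3 of them (the CD3 genes) had lower levels together and the other 2 (Lat and Ubash3a) did not share the pattern. The sequences are from RefSeq on GRCm38.p6, which had windows for 20 of the 32 members. Each is the 250 bases before the annotated start of transcription, 5′ to 3′ on the gene's strand, and capitals mark the motifs given after them.
Cd3g, chr9:44980432-44980681, minus strand: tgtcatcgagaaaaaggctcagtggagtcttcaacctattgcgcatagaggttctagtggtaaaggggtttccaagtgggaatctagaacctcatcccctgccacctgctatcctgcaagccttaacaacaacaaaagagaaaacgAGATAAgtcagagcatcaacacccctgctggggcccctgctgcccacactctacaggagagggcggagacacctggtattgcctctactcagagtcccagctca
Cd3d, chr9:44981536-44981785, plus strand: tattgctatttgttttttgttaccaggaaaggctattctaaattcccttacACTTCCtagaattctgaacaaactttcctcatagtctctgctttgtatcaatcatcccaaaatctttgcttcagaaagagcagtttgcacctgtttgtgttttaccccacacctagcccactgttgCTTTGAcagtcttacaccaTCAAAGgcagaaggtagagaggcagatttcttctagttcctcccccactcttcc
Cd3e, chr9:45009612-45009861, minus strand: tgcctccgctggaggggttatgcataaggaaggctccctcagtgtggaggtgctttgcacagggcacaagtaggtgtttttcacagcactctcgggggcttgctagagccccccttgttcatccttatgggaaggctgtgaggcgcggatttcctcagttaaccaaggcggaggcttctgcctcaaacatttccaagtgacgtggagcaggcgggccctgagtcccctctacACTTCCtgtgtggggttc
Lat, chr7:126369569-126369818, minus strand: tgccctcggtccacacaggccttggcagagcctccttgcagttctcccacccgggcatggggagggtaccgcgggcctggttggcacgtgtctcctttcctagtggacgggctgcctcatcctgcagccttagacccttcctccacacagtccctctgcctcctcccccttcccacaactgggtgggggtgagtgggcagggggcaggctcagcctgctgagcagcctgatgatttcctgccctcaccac
Ubash3a, chr17:31207816-31208065, plus strand: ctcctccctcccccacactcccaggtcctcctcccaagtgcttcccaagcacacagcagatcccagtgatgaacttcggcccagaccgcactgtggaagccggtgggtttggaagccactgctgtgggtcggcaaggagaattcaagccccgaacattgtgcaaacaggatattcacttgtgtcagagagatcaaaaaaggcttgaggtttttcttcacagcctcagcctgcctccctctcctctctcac

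The motifs are cores bound by 5 families of transcription factors that act in T cells, each searched on both strands, so that capitals may show the complement of the letters given here. The ETS family core, GGAAGT, stood in 39.4% of the 33 windows that belong to the 20 members, against 19.7% of all 32851 windows in the table. For the RUNX family the letters were TGTGGT, and the shares were 6.06% of member windows and 14.0% of all windows. The GATA family core was searched as AGATAA, with 6.06% of member windows and 9.99% of all windows holding it. The TCF and LEF family, to which the members Tcf7 and Lef1 belong, was searched as CTTTGA, found in 12.1% of member windows and 13.8% of all windows. The E-box was searched as CAGCTG, found in 12.1% of member windows and 13.0% of all windows. Several windows belong to the same gene, and a match is a description and not a bound site.

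In the windows shown, no match overlapped another. The Cd3d window held 1 ETS match and 2 TCF and LEF matches, the Cd3e window 1 ETS match, and the Cd3g window 1 GATA match. The Lat and Ubash3a windows held 0 matches, which says only that these letters are not there.

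T cell genes as a group stood lower in MLKL ASO mice. Of the 32 members, 30 had a fitted log2 fold change below 0 (MLKL ASO minus control ASO), against 51.2% of all genes tested. Their median was -1.03, where the median of all genes was -0.0092, and 19 members lay at -1 or below, against 4.23% of all genes. The control and MLKL ASO mice did not overlap in 25 members, all lower, against 9.71% of all genes lower and 9.02% higher without overlap. The members share libraries and, in part, cells, so they are not independent of each other.

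By the main test, edgeR's quasi-likelihood test adjusted over all genes, 0 of the 32 members passed 0.05, where 0.0101% of all genes did and 0.00506% did so as lower. The smallest adjusted p among members was 0.211, for Zap70. At an unadjusted p under 0.05, 29 members were lower and 0 higher, against 6.96% and 4.89% of all genes. DESeq2 called 16 members lower and 0 higher, against 1.48% and 1.14% of all genes, and limma-voom with sample weights called 0, against 0.111%. In simulated data DESeq2 also called more unchanged genes (61) than edgeR (7) or limma-voom (10). Mlkl, the targeted gene, was 5.85-fold lower between means, and edgeR did not call it either (adjusted p = 0.0655). DESeq2 (adjusted p = 1.2e-15) and limma-voom (adjusted p = 0.0186) did. The authors' deposited table put 12 members past the same threshold, all lower, against 0.934% of its rows with an adjusted p. The 12 were Cd3d, Cd247, Trac, Trbc1, Trbc2, Cd4, Zap70, Themis, Skap1, Cd6, Cd27 and Satb1, and DESeq2 here called the same 12 and Cd3e, Cd5, Thy1 and Il2rb. These libraries are of endothelial cells, and how those were isolated is not given. Fewer T cells in the spleen, fewer T cells kept in the preparation and less RNA per T cell cannot be told apart in bulk RNA.

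The control mice differed widely among themselves: the median member measured 2.29 times as much in mouse 1601 as in mouse 1608. With each gene set to 100% at its mean over 6 mice, the median member stood at 202% in mouse 1601, 118% for 1602 and 86.0% for 1608, the control mice. It stood at 56.3%, 70.9% and 67.0% in the MLKL ASO mice. Mouse 1601 was the highest of all 6 for 30 members, against 21.3% of all genes, and mouse 1603 the lowest for 24. The median member measured 2.74 times the highest MLKL ASO mouse in mouse 1601, 1.55 times in mouse 1602 and 1.18 times in mouse 1608. The median coefficient of variation was 46.1% in control and 16.0% in MLKL ASO mice, and it was larger in the control group for 30 members. Mouse 1608 was the lowest control mouse for 25 members, and for 5 of them (Lat, Ubash3a, Cd2, Ctla4 and Tcf7) it lay below at least 1 MLKL ASO mouse. For the counts of 24 and 25 members the share of all genes was not computed, so they are a description only.

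**Figure D1:**
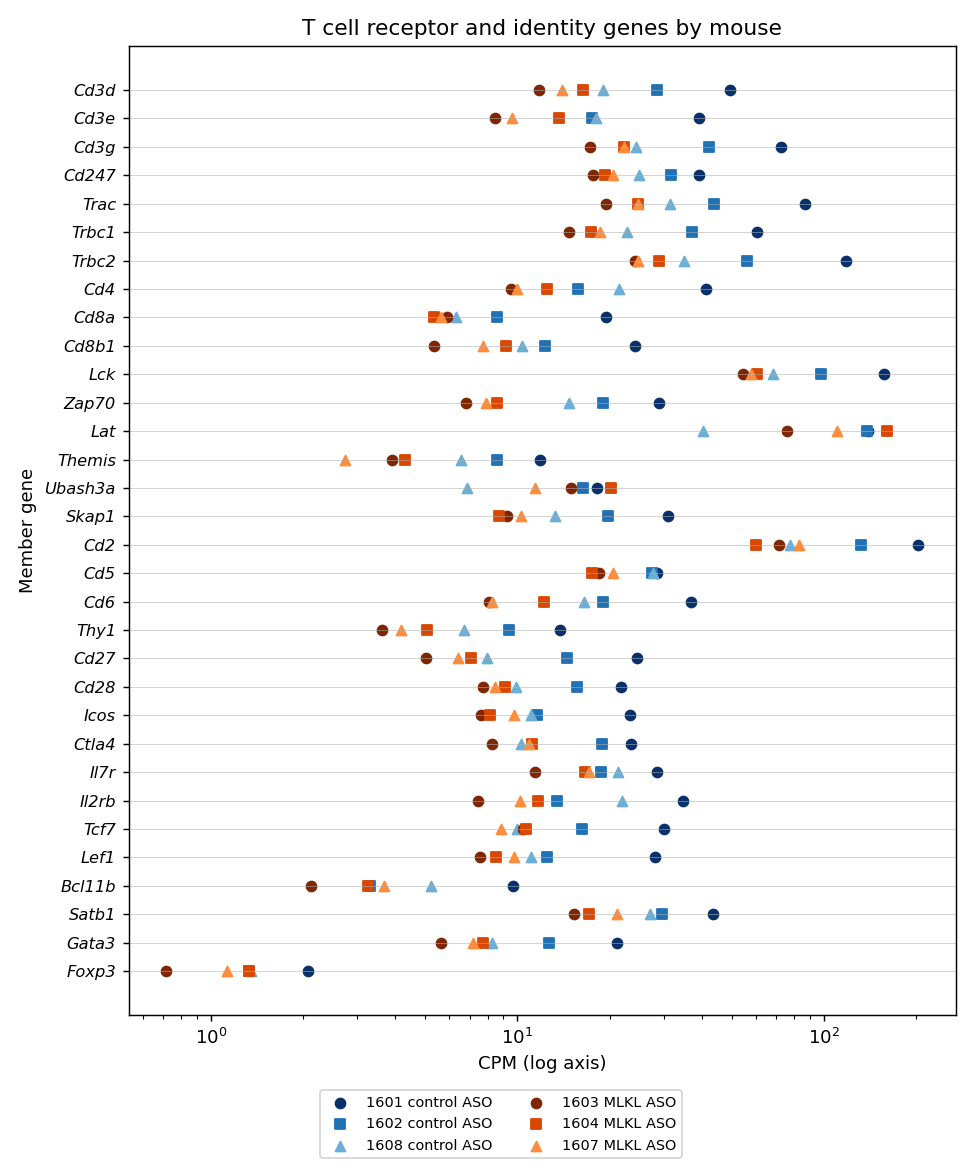
Level of each of the 32 members (vertical axis) in CPM on a log axis, with 1 point per mouse, blue for control ASO and brown to orange for MLKL ASO. Mouse 1601 is the highest point for 30 members, and for Lat and Ubash3a mouse 1608 is the lowest point and mouse 1604 the highest.

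All 7 chains of the receptor complex were lower in the MLKL ASO mice, and none of them overlapped between the groups. Trac, the constant part of the alpha chain, measured 86.5, 43.8 and 31.4 CPM with control ASO, against 19.5, 24.8 and 24.8 CPM with MLKL ASO. Trbc2, a constant part of the beta chain, measured 118, 55.9 and 34.9 CPM with control ASO, against 24.1, 28.9 and 24.7 CPM with MLKL ASO. Trbc1, the other beta constant part, measured 60.7, 37.2 and 22.9 CPM with control ASO, against 14.8, 17.3 and 18.6 CPM with MLKL ASO. Mouse 1601 was the highest for all 3, and the MLKL ASO mice lay close together. The fold between group means was 2.34 for Trac, 2.38 for Trbc1 and 2.68 for Trbc2. Trbc1 and Trbc2 are near-identical, so the split of reads between them is uncertain. With both summed, the log2 fold change was -1.35 (standard error, SE, 0.36, edgeR adjusted p = 0.322).

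The CD3 genes, which code for the chains that carry the signalling tails, were each highest in mouse 1601. Cd3d measured 49.6, 28.5 and 19.0 CPM with control ASO, against 11.7, 16.4 and 13.9 CPM with MLKL ASO. Cd3e stood at 39.2, 17.5 and 18.0 CPM with control ASO, against 8.46, 13.7 and 9.58 CPM with MLKL ASO. For Cd3g the values were 72.7, 42.3 and 24.3 CPM with control ASO, against 17.2, 22.2 and 22.2 CPM with MLKL ASO. The groups did not overlap for any of the 3, and mouse 1608 lay nearest to the MLKL ASO mice for Cd3d and Cd3g, while for Cd3e mouse 1602 did. Their fitted log2 fold changes were -1.21, -1.23 and -1.18, with standard errors of 0.34, 0.36 and 0.37 (edgeR adjusted p of 0.331, 0.342 and 0.349). Cd247 encodes the zeta chain, which NK cells also use, and measured 39.1, 31.8 and 25.0 CPM with control ASO, against 17.6, 19.3 and 20.5 CPM with MLKL ASO. Its difference was the smallest of the 7 chains, at -0.74 (SE 0.18).

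Both coreceptor types were lower, and the 3 genes did not overlap between groups. Cd4, which binds MHC class II and is also found on some dendritic cells, measured 41.3, 15.8 and 21.4 CPM with control ASO, against 9.55, 12.5 and 9.94 CPM with MLKL ASO. Cd8b1, the CD8 beta chain, which is more restricted to T cells than the alpha chain, measured 24.2, 12.3 and 10.4 CPM with control ASO, against 5.34, 9.16 and 7.74 CPM with MLKL ASO. Cd8a, which part of the dendritic cells also make, measured 19.5, 8.58 and 6.28 CPM with control ASO, against 5.88, 5.36 and 5.65 CPM with MLKL ASO. The second highest Cd4 value was that of mouse 1608, whereas for both CD8 genes it was that of mouse 1602. In Cd8a the distance between mouse 1608 and the highest MLKL ASO mouse was small, at 6.28 against 5.88 CPM. The ratio of the helper to the cytotoxic coreceptor overlapped between the groups: the log2 ratio of Cd4 to Cd8a was 1.09, 0.88 and 1.77 with control ASO, against 0.70, 1.22 and 0.82 with MLKL ASO, a difference of -0.33 between the groups (exact two-sided permutation p = 0.4, n = 3 per group, where 0.1 is the smallest possible).

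Of the 6 genes of proximal signalling, 4 were lower without overlap, and Lat and Ubash3a were not. Zap70, the kinase that docks on the phosphorylated CD3 and zeta tails, measured 28.9, 19.1 and 14.8 CPM with control ASO, against 6.79, 8.56 and 7.90 CPM with MLKL ASO. Mouse 1608 stood clear of the MLKL ASO mice here, at 14.8 CPM against 8.56 CPM in the highest of them. The group means were 20.9 ± 7.25 CPM with control ASO, against 7.75 ± 0.896 CPM with MLKL ASO, a 2.70-fold difference. It had the largest fitted difference of all members, a log2 fold change of -1.43 (SE 0.26), and DESeq2 called it (adjusted p = 0.000120). The authors' deposited table gave it -1.37 on the log2 scale with an adjusted p of 0.000266.

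Themis, a protein that thymocytes need for selection, measured 11.8, 8.60 and 6.53 CPM with control ASO, against 3.90, 4.29 and 2.73 CPM with MLKL ASO. Every control mouse lay above every MLKL ASO mouse, and the log2 fold change was -1.31 (SE 0.29, edgeR adjusted p = 0.276, DESeq2 adjusted p = 0.00283). Skap1, an adaptor that links the receptor to integrins, measured 31.1, 19.8 and 13.3 CPM with control ASO, against 9.26, 8.73 and 10.3 CPM with MLKL ASO. Lck, the kinase that starts the cascade, measured 157, 97.6 and 68.3 CPM with control ASO, against 54.4, 60.4 and 57.9 CPM with MLKL ASO. In Skap1 and Lck the MLKL ASO mice were tightly grouped, and the control mice fell in the order 1601, 1602, 1608.

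Lat and Ubash3a went against the other members. Lat, the adaptor on which the signalling complex assembles and which platelets and mast cells also make, measured 139.6, 138 and 40.4 CPM with control ASO, against 75.9, 160.3 and 110.5 CPM with MLKL ASO. The lowest value was in control mouse 1608 and the highest in MLKL ASO mouse 1604, so the groups overlapped, with means of 106 ± 56.9 CPM with control ASO, against 116 ± 42.4 CPM with MLKL ASO. Ubash3a, a phosphatase family protein that dampens receptor signalling, measured 18.2, 16.4 and 6.87 CPM with control ASO, against 14.9, 20.2 and 11.4 CPM with MLKL ASO. It had the same lowest and highest mouse, and means of 13.8 ± 6.09 CPM with control ASO, against 15.5 ± 4.45 CPM with MLKL ASO. The log2 fold changes were 0.12 (SE 0.47) and 0.17 (SE 0.38). Both turned negative without mouse 1604 (-0.19 for Lat and -0.074 for Ubash3a) and without mouse 1608 (-0.26 and -0.15), and Lat also in limma-voom (-0.063). Genes with mouse 1604 highest and mouse 1608 lowest made up 5.83% of all genes tested. All 7 megakaryocyte markers had that order, looked up after these values were seen: their summed level was 1067, 1524 and 74.5 CPM with control ASO, against 1309, 2735 and 1893 CPM with MLKL ASO. Of 8 erythroid markers 7 had it, with a summed level of 75764, 28652 and 26075 CPM with control ASO, against 47241, 90872 and 40054 CPM with MLKL ASO. The part of these cells in the Lat and Ubash3a values was not tested.

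**Figure D2:**
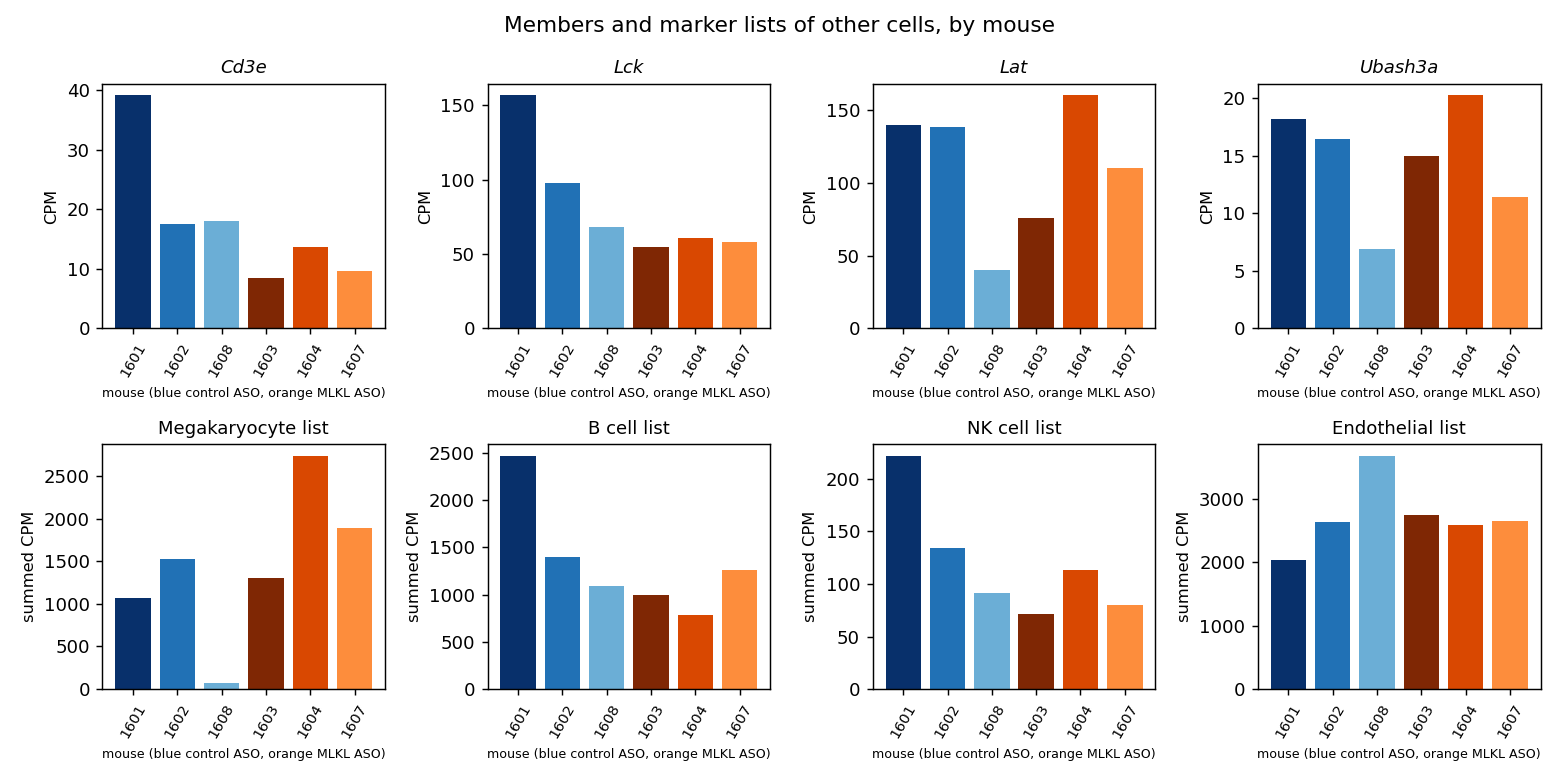
Bars show CPM of Cd3e, Lck, Lat and Ubash3a (upper panels) and summed CPM of marker lists of megakaryocytes, B cells, NK cells and endothelium (lower panels) for each mouse, control ASO in blue and MLKL ASO in brown to orange. Lat and Ubash3a are lowest in mouse 1608, where the megakaryocyte sum is 74.5 CPM, while Cd3e, Lck, the B cell sum and the NK cell sum are highest in mouse 1601.

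The 4 adhesion and regulatory surface proteins were lower on average, and 3 of them did not overlap. Cd5, which dampens receptor signalling and is also found on B-1 cells, measured 28.5, 27.5 and 27.7 CPM with control ASO, against 18.5, 17.6 and 20.5 CPM with MLKL ASO. This was the one member in which control mice agreed closely, with a coefficient of variation of 1.93%, and mouse 1601 stood only slightly above the others. The difference was small in size, 1.48-fold between means, and steady, with a log2 fold change of -0.57 and a standard error of 0.13. It was -0.57 without mouse 1601, and DESeq2 called it with all mice (adjusted p = 0.00282) where the authors' deposited table did not (adjusted p = 0.0964).

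Cd6, a relative of Cd5 that binds ALCAM, measured 37.0, 19.0 and 16.5 CPM with control ASO, against 8.10, 12.2 and 8.27 CPM with MLKL ASO. Thy1, a surface glycoprotein of T cells that stromal cells can also carry, measured 13.8, 9.42 and 6.68 CPM with control ASO, against 3.60, 5.07 and 4.17 CPM with MLKL ASO. Neither overlapped, and the folds between means were 2.53 and 2.33. Cd2, an adhesion receptor that mouse B cells and NK cells also carry, measured 203, 132 and 77.7 CPM with control ASO, against 71.4, 59.8 and 82.7 CPM with MLKL ASO. Its groups overlapped, since mouse 1608 lay below mouse 1607.

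Costimulatory receptors and the checkpoint receptor Ctla4 were lower on average as well. Cd27, a TNF receptor family member, measured 24.6, 14.5 and 7.99 CPM with control ASO, against 5.05, 7.05 and 6.42 CPM with MLKL ASO. Cd28, the costimulatory receptor for CD80 and CD86, measured 21.9, 15.6 and 9.86 CPM with control ASO, against 7.70, 9.13 and 8.45 CPM with MLKL ASO. Icos, which follicular helper cells use, measured 23.3, 11.6 and 11.1 CPM with control ASO, against 7.63, 8.15 and 9.75 CPM with MLKL ASO. In these 3 genes every control mouse lay above every MLKL ASO mouse, although for Cd27 and Cd28 the value of mouse 1608 was within 1 CPM of the highest of them. Ctla4, which competes with CD28 for its ligands, measured 23.5, 18.9 and 10.3 CPM with control ASO, against 8.23, 11.1 and 10.9 CPM with MLKL ASO. There the groups overlapped, with mouse 1608 below mice 1604 and 1607. Cd28, Ctla4 and Icos differed in size less than Cd27, with log2 fold changes of -0.90, -0.80 and -0.85 against -1.35; the differences among them were not tested.

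The cytokine receptors kept the groups apart. Il2rb, a chain shared by the receptors for interleukins 2 and 15 and abundant on NK cells, measured 34.8, 13.5 and 21.9 CPM with control ASO, against 7.42, 11.7 and 10.2 CPM with MLKL ASO. Mouse 1608 was the second highest, and the log2 fold change was -1.26 (SE 0.35). Il7r, the interleukin 7 receptor that naive T cells need to survive, measured 28.5, 18.7 and 21.3 CPM with control ASO, against 11.4, 16.6 and 17.1 CPM with MLKL ASO. Here the lowest control mouse, 1602, lay close to the highest MLKL ASO mouse, 1607, and the log2 fold change was -0.60 (SE 0.23).

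Among the 6 transcription factors, 3 did not overlap. Satb1, a chromatin organiser of T cells, measured 43.6, 29.7 and 27.0 CPM with control ASO, against 15.3, 17.1 and 21.1 CPM with MLKL ASO. Gata3, the factor of T cell commitment and type 2 helper cells, measured 21.1, 12.7 and 8.24 CPM with control ASO, against 5.63, 7.75 and 7.15 CPM with MLKL ASO. Lef1, a partner of beta-catenin in naive T cells, measured 28.1, 12.5 and 11.1 CPM with control ASO, against 7.55, 8.53 and 9.73 CPM with MLKL ASO. Satb1 had the smallest standard error of these factors, 0.22, at a log2 fold change of -0.91, and was the factor that both DESeq2 (adjusted p = 0.0179) and the authors' deposited table (adjusted p = 0.0160) placed past the threshold.

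Tcf7, the closest relative of Lef1 in naive and memory T cells, measured 30.1, 16.3 and 9.94 CPM with control ASO, against 10.4, 10.7 and 8.84 CPM with MLKL ASO. Bcl11b, which maintains T cell identity, measured 9.68, 3.31 and 5.21 CPM with control ASO, against 2.13, 3.25 and 3.68 CPM with MLKL ASO. Foxp3, the factor of regulatory T cells, measured 2.07, 1.33 and 1.35 CPM with control ASO, against 0.714, 1.33 and 1.13 CPM with MLKL ASO. In all 3 the groups overlapped: mouse 1608 lay below mice 1603 and 1604 for Tcf7, and mouse 1602 lay within the MLKL ASO range for Bcl11b and Foxp3. Foxp3 was the lowest member, with as few as 43.8 estimated counts in a library, and its log2 fold change of -0.58 (SE 0.36) had an unadjusted p of 0.151.

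Leaving out mouse 1601 made the differences of most members smaller. The exceptions were Cd5, at -0.57 in both fits, and Lat and Ubash3a, which rose to 0.36 and 0.40. The median log2 fold change went from -1.03 to -0.63, with 30 members still below 0 and 22 at an unadjusted p under 0.05, all lower, against 6.95% of all genes in that fit. Zap70 (-1.43 with all mice) was -1.14, Themis -1.07, Thy1 -0.93, Cd6 -0.91 and Cd27 -0.88 without this mouse. Cd8a went from -1.02 to -0.42 and Tcf7 from -0.91 to -0.41, and both were then above an unadjusted p of 0.05. So were Cd2, Icos, Ctla4, Il7r and Bcl11b, which makes 7 members that passed it with all mice and not without mouse 1601. Without mouse 1608 the median was -1.30 and all 32 members were below 0. By edgeR 0 members passed the adjusted threshold in either run. DESeq2 called 12 members lower without mouse 1601, against 2.71% of all genes, and 27 without mouse 1608, against 4.1%.

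**Figure D3:**
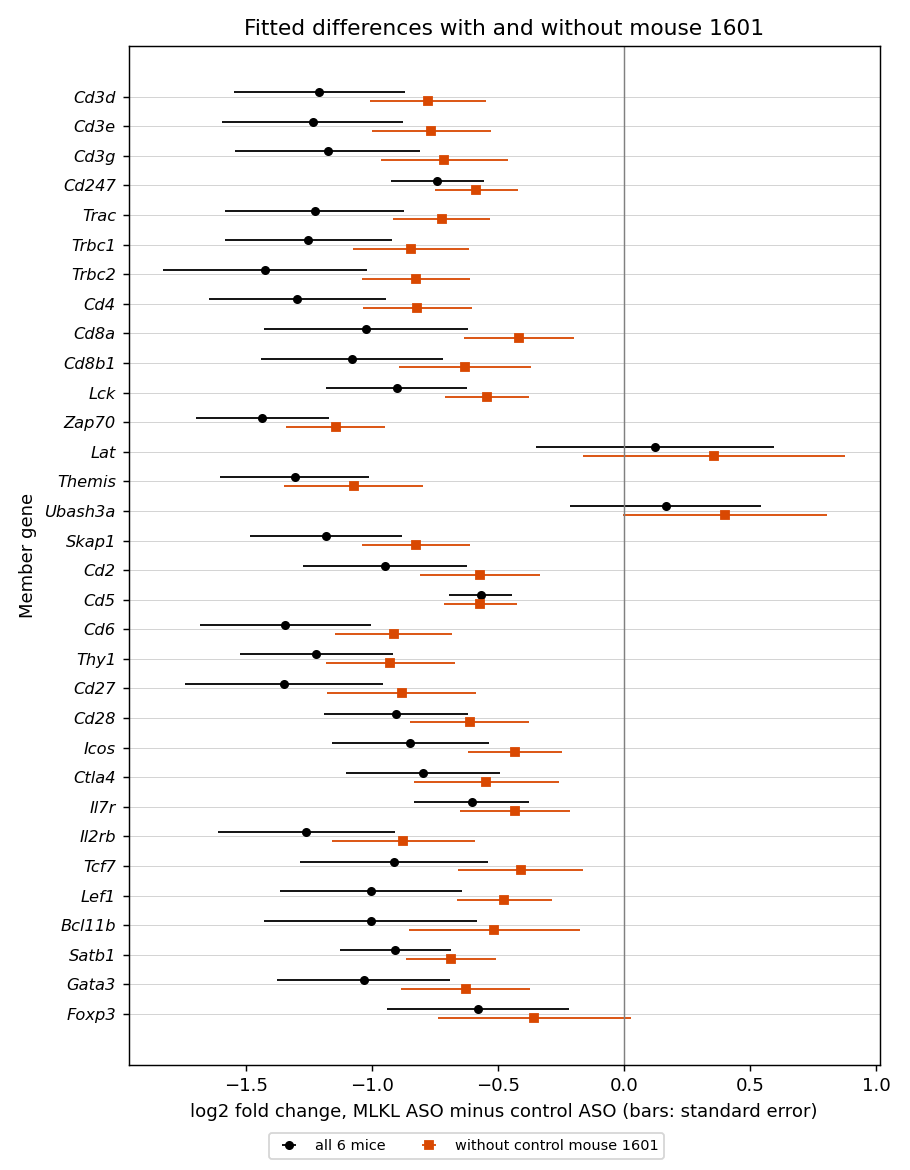
Fitted log2 fold change of each member, MLKL ASO minus control ASO, with bars of 1 standard error, from all 6 mice (black) and without control mouse 1601 (orange). In both fits 30 of 32 members lie below 0, and the medians are -1.03 and -0.63.

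Members were also set against the CD3 genes of the same library, as log2 ratios to the mean log2 level of Cd3d, Cd3e and Cd3g, which takes out a level common to all of them. Trac over the CD3 genes was 0.73, 0.66 and 0.63 with control ASO, against 0.71, 0.54 and 0.79 with MLKL ASO, a difference of 0.00095. Thy1 over the CD3 genes differed by -0.067 and Cd27 by -0.11. Among 32 ratios 4 did not overlap between groups, all higher in MLKL ASO mice. Of the 20 assignments of 3 mice against 3, a share of 0.1 keeps the groups of any single ratio apart. A count of this size among 32 is therefore no result about these genes. Lat stood 1.37 higher relative to the CD3 genes, Ubash3a 1.35, Tcf7 0.34 and Lck 0.29 on the log2 scale. The CD3 genes were themselves lower in MLKL ASO mice, so a member that fell less than they did stands higher here. These differences therefore largely restate the fold changes above and are no separate support. Each had an exact two-sided permutation p of 0.1, the smallest that 3 mice against 3 allow, and 0.492 after Benjamini-Hochberg adjustment over the 32 ratios. Foxp3 over the CD3 genes was -4.65, -4.38 and -3.91 with control ASO, against -4.06, -3.68 and -3.67 with MLKL ASO, with overlap and a difference of 0.51. The count of 4 was 7 without mouse 1601, 7 without mouse 1602, 8 without mouse 1603, 16 without mouse 1604, 4 without mouse 1607 and 10 without mouse 1608. Leaving out a mouse can remove an overlap but cannot create one. With fewer mice, groups also stand apart more often by assignment alone. With Trac in place of the CD3 genes 3 ratios did not overlap: Lat, Ubash3a and Lck kept their groups apart, and those of Tcf7 overlapped (exact permutation p = 0.2, n = 3 per group).

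**Figure D4:**
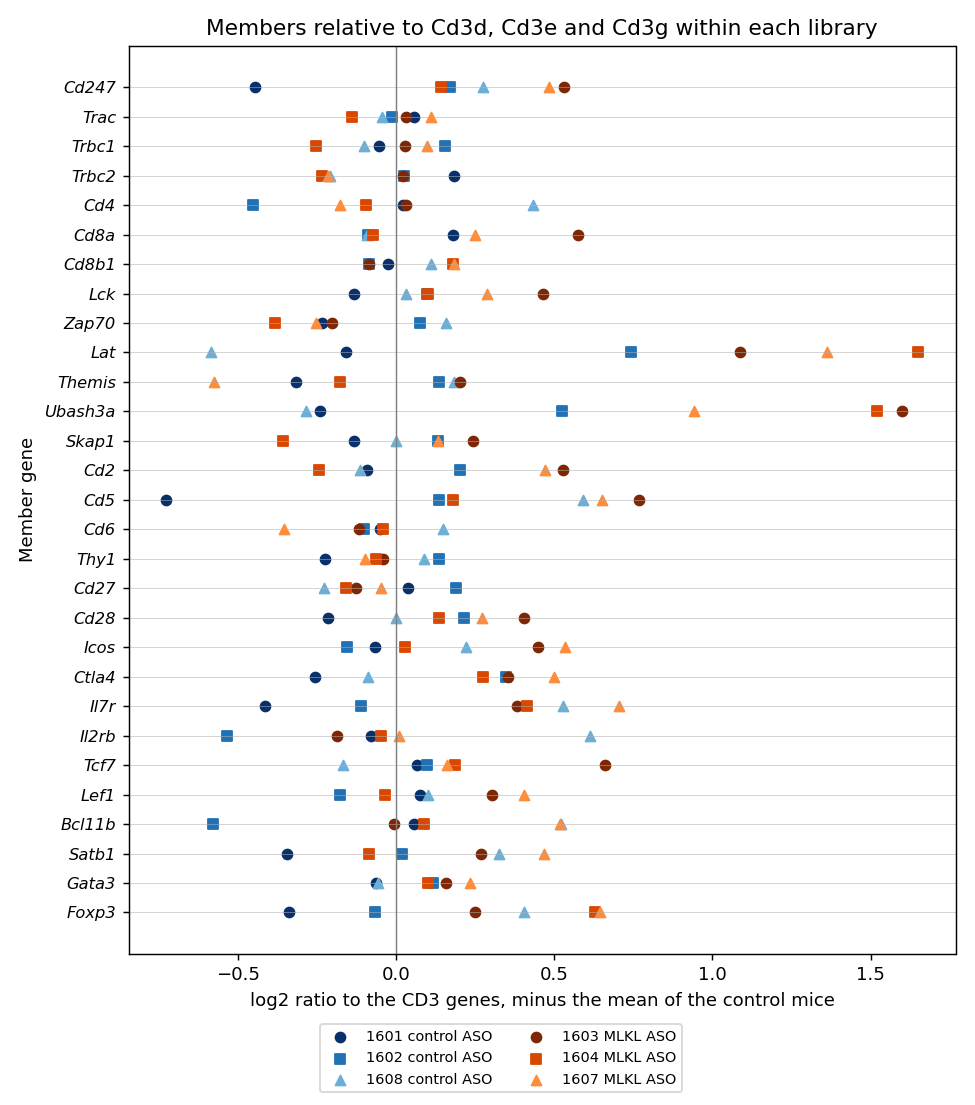
Log2 ratio of each of the other 29 members to the CD3 genes within each library, drawn as the distance from the control mean, with 1 point per mouse (blue control ASO, brown to orange MLKL ASO). Lat and Ubash3a lie furthest to the right in MLKL ASO mice, with mean differences of 1.37 and 1.35, while Trac lies around 0.

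The rest of the receptor pathway was mixed. Of 35 other signalling genes 22 were below 0, against 51.2% of all genes, and their median was -0.30 on the log2 scale. None passed by edgeR (0 of 35). At an unadjusted p under 0.05, 10 were lower, against 6.96% of all genes, and DESeq2 called 2 lower, against 1.48%. Malt1, the protease of the pathway to NF-κB, measured 61.8, 43.7 and 46.0 CPM with control ASO, against 30.6, 34.3 and 30.5 CPM with MLKL ASO. Malt1, Itpkb (40.3 ± 5.26 CPM with control ASO, against 28.2 ± 2.28 CPM with MLKL ASO) and Nfatc1 (46.5 ± 10.4 CPM with control ASO, against 29.9 ± 1.79 CPM with MLKL ASO) were among the 4 with the smallest p of that list and did not overlap. Many genes on the list are made by other blood cells, and Lcp2, the partner adaptor of LAT, stood at 149.9, 135 and 152 CPM with control ASO, against 124, 168 and 139 CPM with MLKL ASO.

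Genes of T cell trafficking, subsets and state lay nearer to the members. Of 37 such genes 34 were below 0, against 51.2% of all genes, with a median of -0.70. Without overlap 21 were lower, against 9.71% of all genes. By edgeR 0 passed. At an unadjusted p under 0.05, 22 were lower, against 6.96% of all genes, and DESeq2 called 5 lower, against 1.48%. Il2ra, the high-affinity interleukin 2 receptor chain, measured 4.76, 5.30 and 4.78 CPM with control ASO, against 2.65, 1.89 and 2.37 CPM with MLKL ASO. Lag3, a checkpoint receptor that binds MHC class II, measured 11.9, 5.31 and 8.82 CPM with control ASO, against 2.91, 3.53 and 2.68 CPM with MLKL ASO. Pdcd1, the receptor PD-1, measured 12.7, 7.95 and 7.65 CPM with control ASO, against 3.59, 5.34 and 4.97 CPM with MLKL ASO, and Gimap3, a GTPase of lymphocyte survival, 176, 117 and 90.7 CPM with control ASO, against 64.6, 64.4 and 75.8 CPM with MLKL ASO. Mouse 1601 was the highest for the latter 3, whereas for Il2ra it was mouse 1602.

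The sums of NK cell and B cell markers were also highest in mouse 1601. The innate lymphoid sum was not, at 34.9 CPM there against 43.4 CPM in mouse 1608. A high level in mouse 1601 was not particular to lymphocytes: this mouse also had the highest macrophage sum (842 CPM) and the lowest endothelial sum (2035 CPM). The erythroid, megakaryocyte and neutrophil sums were highest in mouse 1604. The 10 NK cell markers were all below 0, with a median of -0.83, and summed to 91.2 to 222 CPM with control ASO, against 71.1 to 113 CPM with MLKL ASO. Ncr1 measured 10.6, 4.59 and 3.89 CPM with control ASO, against 1.61, 3.08 and 2.10 CPM with MLKL ASO and Klrb1c 14.5, 8.02 and 10.8 CPM with control ASO, against 3.46, 6.52 and 5.86 CPM with MLKL ASO. The 10 B cell markers were all below 0 too, with a median of -0.67, and summed to 2465, 1399 and 1095 CPM with control ASO, against 997, 779 and 1264 CPM with MLKL ASO. Of these, Ms4a1 measured 382, 219 and 161 CPM with control ASO, against 167, 125 and 207 CPM with MLKL ASO. Mouse 1601 was the highest for both sums, as it was for most members, and both sums overlapped between the groups. At an unadjusted p under 0.05, 5 NK cell and 4 B cell markers were lower, against 6.96% of all genes. Without overlap, 3 NK cell and 3 B cell markers were lower, against 9.71% of all genes. By edgeR 0 of either list passed. The 4 constant chains of gamma delta T cells were low in level, and 3 of them were below 0, with a median of -1.09. Trdc measured 6.27, 4.57 and 2.54 CPM with control ASO, against 1.32, 1.83 and 2.36 CPM with MLKL ASO, and Trgc1 4.26, 2.65 and 3.38 CPM with control ASO, against 3.12, 3.25 and 6.72 CPM with MLKL ASO. The log2 fold changes were -1.28 for Trdc and -1.40 for Trgc4, both lower without overlap, -0.89 for Trgc2 and 0.35 for Trgc1, both with overlap. Lists of 3 other blood lineages had the opposite sign: all 8 erythroid markers (median 0.63), all 7 megakaryocyte markers (median 1.04) and all 7 neutrophil markers (median 0.42) were above 0. Of these, 0 passed by edgeR. At an unadjusted p under 0.05, 2 erythroid markers were higher, against 4.89% of all genes. Without overlap, 3 megakaryocyte markers were higher, against 9.02% of all genes. Rag1, the recombinase of developing lymphocytes, was at 0 in 2 libraries and at most 0.242 CPM. No marker on these lists was at 0 in every library. The part of these cells in the members' values was not tested.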

How the data were processed

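RNA of splenic endothelial cells was sequenced in 6 libraries, 3 per group. Per the submitters' processing notes the tools were fastp 0.20.1, Salmon 1.3.0 and DESeq2. The build and gene models used with Salmon were not given in the sources used here. The deposited table holds estimated counts per gene symbol, of which 69.3% are not whole. The authors also deposited a DESeq2 table, which per the file headers gives a signal (the mean normalised count), log2 fold changes with standard errors, a Wald score, p-values and adjusted p-values.

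The estimated counts were rounded and compared in R 4.3.3 with edgeR 4.0.16: the default expression filter, TMM scaling, and the two-sided quasi-likelihood test with Benjamini-Hochberg adjustment over all genes at 0.05. The standard error is the log2 fold change over the root of its F statistic. CPM use TMM-scaled totals. Ratios within libraries were compared by an exact two-sided permutation test over mice. Alternatives were other scalings and filters, robust dispersion, DESeq2 1.42.0, limma 3.58.1 (voom with sample weights) and leaving out each mouse, and DESeq2 without mouse 1601 or 1608 was added after seeing the data. The fits were tested on simulated data with 100 genes changed 2-fold and 100 changed 4-fold. Of these edgeR recovered 16 and 65, DESeq2 45 and 76, and limma-voom 14 and 62. Unchanged genes called numbered 7 by edgeR, 61 by DESeq2 and 10 by limma-voom. Most 2-fold differences were thus missed by each tool. DESeq2 called 61 unchanged genes beside 45 and 76 changed ones, so its calls held more false ones than a threshold of 0.05 allows. The calls of members by DESeq2 have to be read with that limit. Each gene was simulated on its own, without a level shared by the genes of a mouse. All members are named, and from the 2 lists of other T cell genes the 4 with the smallest p, from the other cell lists the first 2 genes, except for some that are not reported here. Lcp2, Grap2, Prkcq, Dok2, Ubash3b, Nck2, Cd226, Trgc2, Trgc4, Klrg1, Lum, Gp9, Ppbp and Clec1b were chosen after their values were seen. The members and lists were chosen with earlier results of these data known. The thymocyte list had 1 gene tested (Dntt, not past the threshold), with Rag2 not analysed here. As nothing but the mouse number separates the libraries of a group, the tests set the group difference against the spread between these mice. Counts carry counting error only as far as reads are independent molecules.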

Additional observations from a re-analysis of the deposited data

How the results depend on the processing

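The members' median stayed near -1 under every scaling and filter run, and between -1.30 and -0.63 when single mice were left out. By edgeR and limma-voom 0 members were called under every setting run. DESeq2 called 16 members, 12 without mouse 1601 and 27 without mouse 1608, the last 2 chosen after seeing the data, and 7 of the other T cell genes. Genes called among all tested were 2 as reported, 4 with upper quartile factors, 9 with library totals alone, 22 with limma-voom, 515 with DESeq2 (1065 without mouse 1601 and 1248 without mouse 1608) and 0 to 19 by edgeR without single mice. Members at an unadjusted p under 0.05 numbered 20 to 28 without single mice, against 4.24% to 8.66% of all genes lower in those fits. Members lower without overlap numbered 26 to 29, against 13.4% to 17.7% of all genes (9.71% with all mice), so the background was higher as well. Ratios without overlap numbered 4 to 16 without single mice, and 3 with Trac in place of the CD3 genes. Without single mice the log2 fold change ranged from -0.26 to 0.36 for Lat and from -0.15 to 0.40 for Ubash3a. The sign turned for Lat in limma-voom (-0.063), without mouse 1604 (-0.19) and without mouse 1608 (-0.26), and for Ubash3a without mouse 1604 (-0.074) and without mouse 1608 (-0.15); the cause was not tested. No paired analysis was possible because the mouse numbers do not recur between the groups. Foxp3 had the fewest counts, and the part of depth in its error was not measured.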

Other observations

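Other T cell genes shared the order of mice seen in Lat and Ubash3a, with mouse 1604 highest and mouse 1608 lowest. They were looked up after those values were seen. Among the 35 other signalling genes, 5 had this order, against 5.83% of all genes tested. Grap2, an adaptor that binds LAT and SLP-76, measured 24.4, 17.2 and 9.01 CPM with control ASO, against 14.8, 26.2 and 19.4 CPM with MLKL ASO. Prkcq, the protein kinase C theta, measured 44.8, 45.2 and 29.2 CPM with control ASO, against 40.4, 61.9 and 37.8 CPM with MLKL ASO. Dok2, an inhibitory adaptor of blood cells, measured 64.7, 62.8 and 14.1 CPM with control ASO, against 43.2, 105 and 65.8 CPM with MLKL ASO, and Ubash3b, the relative of Ubash3a that platelets make, 27.6, 37.4 and 10.1 CPM with control ASO, against 30.4, 49.6 and 33.3 CPM with MLKL ASO. Nck2 was low in every library, at most 0.649 CPM. In the list of trafficking, subset and state genes the order was that of Cd226 alone, a receptor of T cells, NK cells and platelets, which measured 24.7, 23.2 and 8.44 CPM with control ASO, against 23.0, 43.6 and 31.3 CPM with MLKL ASO.

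The summed levels of the marker lists of further cells overlapped between the groups, while single markers did not all do so. Flt3, as 1 of 8 dendritic cell markers, and Klrg1, as 1 of 6 innate lymphoid markers, were lower without overlap, against 9.71% of all genes. Their log2 fold changes were -0.74 and -1.03. Lum, as 1 of 8 reticular markers, was higher without overlap, against 9.02% of all genes. It measured 0.508, 0.615 and 0 CPM with control ASO, against 2.47, 3.61 and 2.84 CPM with MLKL ASO. Of 7 megakaryocyte markers 3 were higher without overlap, with log2 fold changes of 1.05 for Gp9, 1.40 for Ppbp and 0.82 for Clec1b. A count of 1 in a list this short lies near the share of all genes and is no result about the list. By edgeR 0 markers of these lists passed the adjusted threshold. Macrophage markers summed to 324 to 842 CPM with control ASO, against 396 to 618 CPM with MLKL ASO, with Adgre1 at 49.6 ± 38.8 CPM with control ASO, against 46.1 ± 9.28 CPM with MLKL ASO and Cd68 at 79.5 ± 39.9 CPM with control ASO, against 74.8 ± 4.82 CPM with MLKL ASO. Neutrophil markers summed to 153 to 1193 CPM with control ASO, against 437 to 1339 CPM with MLKL ASO, with S100a8 at 169 ± 165 CPM with control ASO, against 225 ± 112 CPM with MLKL ASO and S100a9 at 102 ± 94.9 CPM with control ASO, against 130.03 ± 60.8 CPM with MLKL ASO. Dendritic cell markers summed to 140.1 to 201 CPM with control ASO, against 145 to 157 CPM with MLKL ASO, with Itgax at 10.1 ± 4.12 CPM with control ASO, against 12.8 ± 2.76 CPM with MLKL ASO and Flt3 at 11.3 ± 4.07 CPM with control ASO, against 6.73 ± 0.638 CPM with MLKL ASO. Markers of innate lymphoid cells summed to 34.9 to 43.4 CPM with control ASO, against 32.6 to 36.7 CPM with MLKL ASO, with Il23r at 0.181 ± 0.0741 CPM with control ASO, against 0.0896 ± 0.0821 CPM with MLKL ASO. Reticular stromal markers summed to 78.4 to 346 CPM with control ASO, against 168 to 238 CPM with MLKL ASO, with Pdgfra at 4.26 ± 2.56 CPM with control ASO, against 6.64 ± 3.03 CPM with MLKL ASO and Pdgfrb at 3.65 ± 2.15 CPM with control ASO, against 3.28 ± 1.18 CPM with MLKL ASO. Epor of the erythroid list measured 10.8 ± 5.41 CPM with control ASO, against 14.9 ± 2.63 CPM with MLKL ASO, and Itga2b and Gp1bb of the megakaryocyte list 84.9 ± 64.0 CPM with control ASO, against 157 ± 69.8 CPM with MLKL ASO and 81.7 ± 73.9 CPM with control ASO, against 126 ± 53.1 CPM with MLKL ASO.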
